A study of Mus musculus with 8 samples.

Results

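Laminins, integrins and the other named components of the basement membrane were followed in whole mouse hearts after coronary ligation. The members were the genes whose symbol in the platform annotation marked a laminin chain (Lama, Lamb, Lamc), an integrin subunit (Itga, Itgb), a nidogen (Nid1, Nid2), perlecan (Hspg2), agrin (Agrn) or dystroglycan (Dag1). This gave 40 genes on 67 probes, of 13661 genes with a single symbol. Among them 8 were leukocyte integrins, 29 were laminins, other integrin subunits, linkers, proteoglycans and dystroglycan, and 3 (Itgb1bp2, Itgb3bp and Itgbl1) carried an integrin-like name without coding for an integrin subunit.

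The infarcted group held 4 C57Bl/6 mice whose left coronary artery was permanently ligated at its descending branch, and the sham control group held 4 C57Bl/6 mice in which the suture was passed but never tied. All mice were 8 to 10 weeks old, and each whole heart was put on an array of its own, so muscle, scar, vessels and blood cells were measured together. How long after ligation the hearts were taken is not stated in the labels. In whole hearts, fewer cells of a type and less RNA per cell cannot be told apart.

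Basement membranes are thin sheets of matrix that wrap each cardiac muscle cell and underlie the endothelium of every vessel. Laminins, each built from an alpha, a beta and a gamma chain, polymerise into a network that nidogens and perlecan tie to type IV collagen. Cells hold on to the network through integrins, receptors made of an alpha and a beta subunit, and through dystroglycan, which links laminin to dystrophin and the cytoskeleton. Leukocyte integrins serve another task, the adhesion of circulating immune cells to endothelium and to each other.

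Levels are given as log2 of a spot's signal over the median signal of its block of 700 spots, which puts the median spot at 0 and makes 1 unit a doubling. Of 33600 spots, 21916 to 23655 carried a value on infarcted and 19704 to 24819 on sham control arrays. Of the 40 members, 26 were tested because at least 3 arrays per group carried a value, 11 had some values but too few, and 3 (Itga4, Itgb2l and Nid1) had none. Missing values occurred at dim spots and also at bright ones. Among spots whose recovered scanner signal exceeded 20000 on some array, 38 values were missing on infarcted and 190 on sham control arrays. The highest signal present for a member probe was 16924, which cannot show a value that is missing. Why values of members are missing was not tested.

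The labels state that heart RNA was hybridised against a pooled reference of many mouse organs, but the deposited values hold 1 signal per spot and do not say which channel it came from. Testis and liver transcripts, which define other organs of that pool, were well above the block median. The 7 tested brain transcripts were not, with medians per array of -0.80 to -0.38 on infarcted and -1.36 to -0.14 on sham control arrays. Prm2, a protamine of sperm nuclei, had a level of 2.46 ± 0.33 on infarcted and 4.15 ± 0.35 on sham control arrays (SD, n = 4 each), a log2 change of -1.69 ± 0.26 (SE, limma adjusted p = 0.0314). The 8 testis transcripts on the list had medians per array of 2.0 to 2.34 on infarcted and 2.25 to 4.14 on sham control arrays, and the 8 tested liver transcripts 1.79 to 2.90 on infarcted and 3.01 to 3.93 on sham control arrays. Over 34 tested transcripts of liver, brain, kidney, testis, lung and stomach, 30 had a negative log2 change, with a median of -0.75. The 99th percentile of all values on an array was 5.05 to 5.24 on infarcted and 5.65 to 6.31 on sham control arrays. The upper end of the values thus lay lower on every infarcted array, not only for these transcripts. The part of this difference in the changes of these transcripts and of bright members was not tested. At the same time 8 of the 14 cardiac muscle markers in the table, among them Myl2, Mb and Atp2a2, lacked values on too many arrays for a test, and the 6 tested had medians per array of 5.13 to 5.35 on infarcted and 4.22 to 5.65 on sham control arrays. The signals are therefore reported as they stand, not as heart RNA alone, and the part of reference RNA in the members' values was not tested.

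None of the 26 tested members passed the threshold in either direction (limma, Benjamini-Hochberg adjusted p under 0.05 over all 18044 features), where 0.549% of all features did (0.0554% higher and 0.493% lower in infarcted hearts). At an unadjusted p under 0.05 there was 1 member, Itgbl1, where 12.3% of all features lay below that value. With each probe on its own, 5 of 39 tested member probes lay below it, where 12.5% of all probes did. The infarcted and sham control values did not overlap for 1 member, Lamb3, against 8.89% of all features. A positive log2 change was seen in 12 of the 26 members and in 42.5% of all features, and 10371 of the 18044 features were negative. Counts by direction in the lists below are to be read beside these values. The other members had a median log2 change of -0.04 over 22 tested genes, and the 2 tested leukocyte integrins had 0.14, beside -0.08 over all features. With 26 members these counts are small, and their difference from the background was not tested. The p-values set a mean difference against the spread between the arrays of 4 hearts a group. A member that did not pass is therefore not shown to be equal in the groups, and intervals are given below for that reason.

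**Figure D1:**
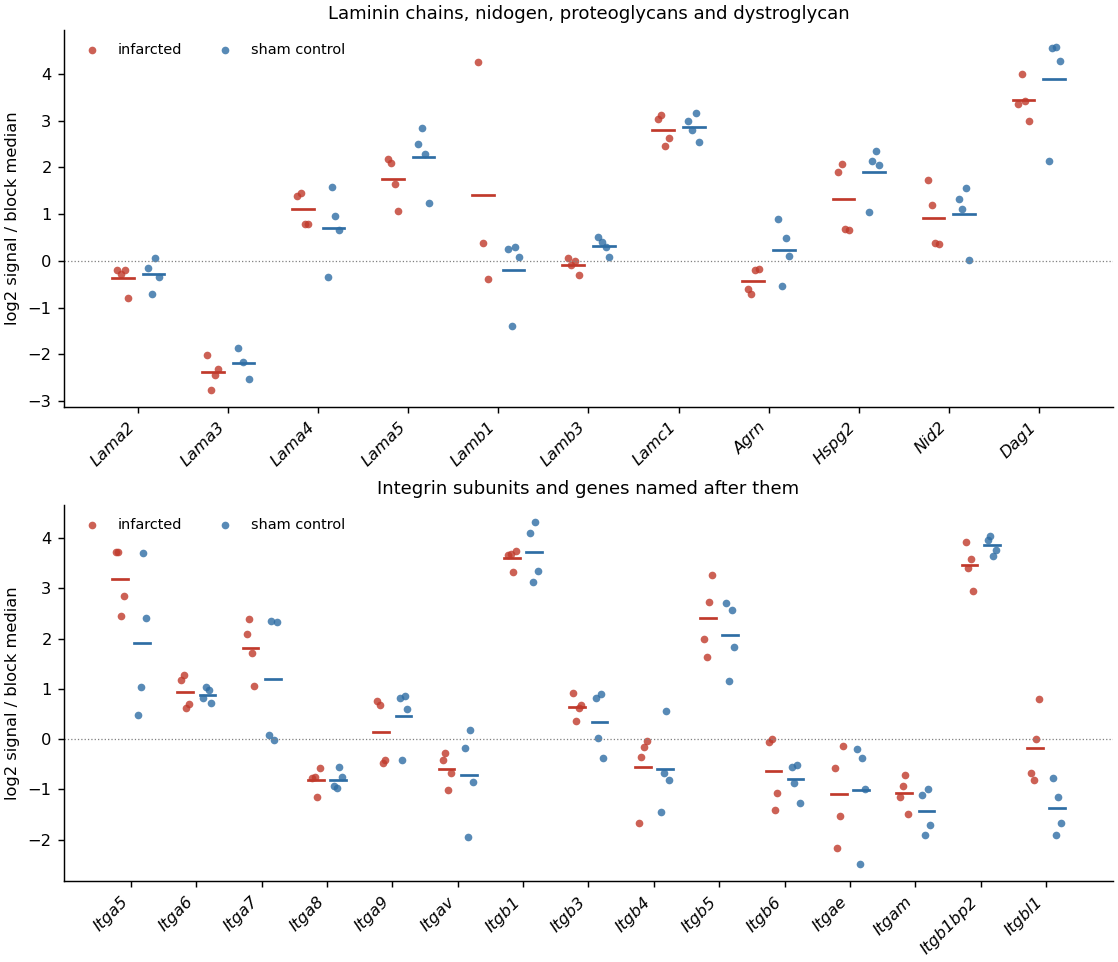
Log2 signal relative to the block median (vertical axis) of the 26 tested members on each array, averaged over a gene's probes, with infarcted arrays left in red and sham control arrays right in blue. Points are arrays and bars are group means. The groups overlap for every gene except Lamb3, and single arrays stand apart for Lamb1 and Dag1.

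Laminin chains came first. Lama2, the alpha chain of the laminin around muscle fibres, whose loss causes a congenital muscular dystrophy, had levels of -0.20, -0.29, -0.21 and -0.80 on infarcted arrays, against -0.15, -0.72, 0.05 and -0.34 on sham control arrays. The values interleaved, and the log2 change was -0.08 ± 0.25 (SE, adjusted p = 0.929) with a 95% interval of -0.64 to 0.47. All 6 probes of Lama2 gave values on every array. Of them 3 had a positive and 3 a negative log2 change, from -0.60 to 0.23.

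Lamc1, the gamma chain shared by most laminins, had levels of 3.02, 3.13, 2.45 and 2.63 on infarcted arrays, against 2.98, 2.79, 3.15 and 2.55 on sham control arrays. The ranges were nearly the same, and the log2 change was -0.06 ± 0.24 (adjusted p = 0.948, 95% interval -0.61 to 0.48). For Lama2 and Lamc1 a doubling or a halving lay outside the interval.

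Lama4 and Lama5 are the alpha chains of vessel walls. Lama4 had levels of 1.40, 1.45, 0.79 and 0.78 on infarcted arrays, against -0.35, 1.57, 0.95 and 0.66 on sham control arrays, where replicate 1 was the lowest (log2 change 0.40 ± 0.39, adjusted p = 0.748; 0.04 without that array). Lama5 had 2.17, 2.10, 1.64 and 1.07 on infarcted arrays, against 2.49, 2.84, 2.28 and 1.24 on sham control arrays (-0.47 ± 0.38, adjusted p = 0.687). The groups overlapped for both chains, and the 2 mean differences had opposite signs. The difference between the 2 chains was not tested.

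Lamb1, the beta chain that pairs with Lamc1 in many tissues, showed how far 1 array can carry a mean. Its only probe read 4.25, 0.37 and -0.39 on infarcted replicates 1, 2 and 3, with no value on replicate 4, against 0.25, -1.40, 0.30 and 0.08 on sham control arrays. The log2 change of 1.60 ± 0.99 was the largest of any member (adjusted p = 0.579) and had an interval of -0.65 to 3.86. Without infarcted replicate 1 it was 0.19 ± 0.53, a setting chosen after seeing the data that rests on 2 infarcted values.

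Lama3 and Lamb3 are chains of the epithelial laminin that anchors skin and airway cells. Lamb3 had levels of 0.07, -0.09, -0.01 and -0.31 on infarcted arrays, against 0.50, 0.41, 0.30 and 0.08 on sham control arrays. Every infarcted value was below every sham control value, though the nearest pair was almost level, and the log2 change was -0.41 ± 0.21 (adjusted p = 0.472). Lama3 was dim, with means of -2.38 ± 0.31 on infarcted (SD, n = 4) and -2.18 ± 0.33 on sham control arrays (n = 3), and a log2 change of -0.19 ± 0.28 (adjusted p = 0.84). Markers of epithelium and mesothelium had a median change of -0.15 over 8 tested genes, and 30 of the 34 transcripts of other organs named above had a negative log2 change, 1 of them past the threshold. Their part in the difference of Lamb3 was not tested. The embryonic chain Lama1 had values on 0 infarcted and 2 sham control arrays and Lamc3 on 1 infarcted and 2 sham control arrays, none above -2.16.

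Of the genes for proteins that tie laminin to the rest of the matrix, Hspg2, Agrn and Nid2 were tested and none passed. Perlecan, the large heparan sulfate proteoglycan encoded by Hspg2, had 3 probes with values on every array, and all 3 were lower on average. Its probe 2 read 3.66, 4.0, 2.17 and 2.07 on infarcted arrays, against 4.29, 4.18, 3.71 and 3.45 on sham control arrays. Its probe 4 read 2.55, 2.89, 1.28 and 1.07 on infarcted arrays, against 2.44, 2.89, 3.65 and 3.21 on sham control arrays. In both probes infarcted replicates 3 and 4 lay below all sham control arrays, whereas replicates 1 and 2 lay within the sham control range. The 3 probes gave log2 changes of -0.67 ± 0.31, -0.93 ± 0.46 and -1.10 ± 0.44 (adjusted p = 0.412, 0.447 and 0.343 over all probes).

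The gene mean of Hspg2 had a smaller log2 change, -0.57 ± 0.41 (adjusted p = 0.646). A further probe had its only value, -2.95, on sham control replicate 1 and pulled that array's mean to 1.05, against 2.04 to 2.34 on the other sham control arrays. With only the probes complete on all 8 arrays the log2 change was -0.90 ± 0.35 (adjusted p = 0.316).

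Agrin, a proteoglycan known for clustering acetylcholine receptors at the nerve-muscle junction and also a ligand of dystroglycan, had means of -0.43 ± 0.28 on infarcted and 0.24 ± 0.60 on sham control arrays (SD, n = 4 each). Its brighter probe read 1.15, 1.33, 1.19 and 0.98 on infarcted arrays, against 2.14, 1.33, 1.78 and 1.78 on sham control arrays. The infarcted values lay below all sham control values except that of replicate 2, with which infarcted replicate 2 was level, and both probes had negative changes of -0.74 ± 0.47 and -0.59 ± 0.23 (adjusted p = 0.578 and 0.324). For the gene the log2 change was -0.67 ± 0.32 (adjusted p = 0.443, 95% interval -1.38 to 0.04).

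Nid2, a nidogen that bridges laminin and collagen, had 1.72, 1.19, 0.39 and 0.36 on infarcted arrays, against 1.33, 1.10, 1.57 and 0.01 on sham control arrays. The ranges largely overlapped (log2 change -0.09 ± 0.42, adjusted p = 0.961). Endothelial markers, whose cells make much of the vessel basement membrane, had a median change of -0.35 over 12 tested genes. Of the 12 markers, 9 were negative, where 10371 of all 18044 features were, and 1, Ramp2, was lower past the threshold. Their medians per array were 1.28 to 1.68 on infarcted and 1.72 to 2.34 on sham control arrays. Whether their difference enters that of perlecan and agrin was not tested.

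**Figure D2:**
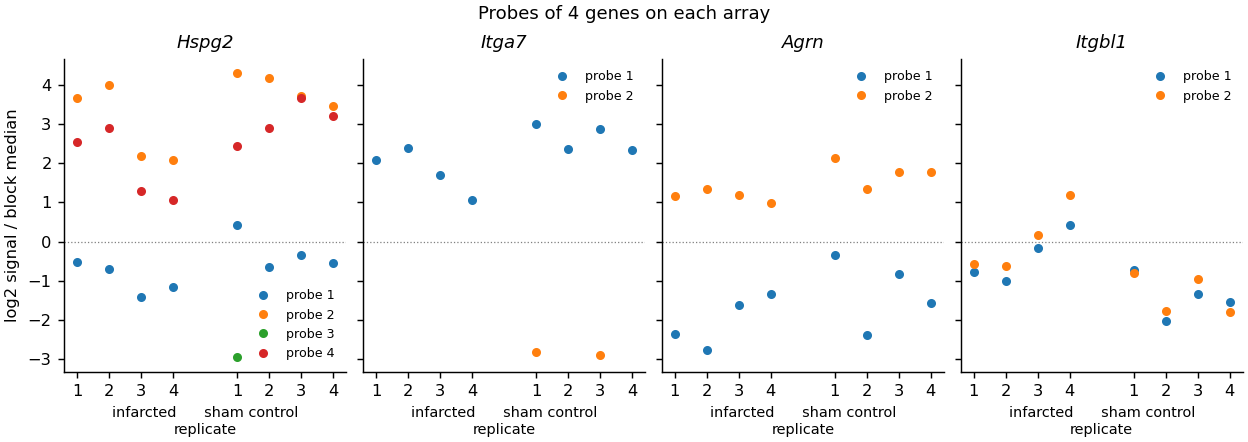
Log2 signal relative to the block median (vertical axis) of each probe of Hspg2, Itga7, Agrn and Itgbl1 on each array (horizontal axis, infarcted left and sham control right). Colours are probes. The dim second probe of Itga7 has values only on sham control replicates 1 and 3, and both probes of Itgbl1 are higher on infarcted arrays on average.

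Dystroglycan, the laminin receptor encoded by Dag1, had levels of 3.35, 3.99, 3.43 and 2.98 on infarcted arrays, against 2.14, 4.55, 4.57 and 4.28 on sham control arrays. Sham control replicate 1 lay far below the other sham control arrays, which were all above the infarcted ones. The log2 change was -0.45 ± 0.52 (adjusted p = 0.795) with all arrays and -1.03 without sham control replicate 1. After quantile normalization, which gives every array the same distribution, it was 0.00, so that no direction is given for this gene.

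Integrin alpha subunits followed. Itga7, the laminin-binding subunit of muscle, showed how the averaging of probes can turn a sign. Its main probe read 2.09, 2.39, 1.71 and 1.05 on infarcted arrays, against 2.99, 2.35, 2.86 and 2.34 on sham control arrays. All infarcted values but that of replicate 2 lay below every sham control value. This probe had a log2 change of -0.83 ± 0.32 (unadjusted p = 0.0272, adjusted p = 0.316), whereas the gene mean gave 0.62 ± 0.60 (adjusted p = 0.74). A second, very dim probe had values of -2.82 and -2.90 on sham control replicates 1 and 3 alone, which lowered those 2 means to 0.09 and -0.02.

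Itga5, the fibronectin-binding subunit, had levels of 3.72, 3.72, 2.45 and 2.84 on infarcted arrays, against 0.47, 1.03, 3.71 and 2.42 on sham control arrays. All infarcted values were above 3 of the 4 sham control values, but sham control replicate 3 reached the top of the infarcted range. The log2 change was 1.28 ± 0.65 (adjusted p = 0.47, 95% interval -0.17 to 2.72), and leaving out single arrays gave 0.80 to 1.88. It rested on 1 probe.

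Itga6, a laminin receptor of endothelium and epithelium, had 1.18, 1.28, 0.61 and 0.70 on infarcted arrays, against 0.81, 1.04, 0.97 and 0.71 on sham control arrays. The spread was small and the ranges overlapped fully, with a log2 change of 0.06 ± 0.23 (adjusted p = 0.948, 95% interval -0.46 to 0.58). Its 3 probes had log2 changes of -0.08, 0.12 and 0.13. Itga8, which binds nephronectin, had means of -0.81 ± 0.25 on infarcted and -0.80 ± 0.19 on sham control arrays (log2 change -0.01 ± 0.22, adjusted p = 0.993). Itga9, a receptor for tenascin, had 0.14 ± 0.67 on infarcted and 0.46 ± 0.60 on sham control arrays (-0.32 ± 0.40, adjusted p = 0.813).

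Itgav, the alpha subunit of the vitronectin receptors, had means of -0.60 ± 0.33 on infarcted and -0.70 ± 0.93 on sham control arrays (0.11 ± 0.43, adjusted p = 0.951). The remaining alpha subunits had values on too few arrays for a test. The collagen receptor subunits Itga2 and Itga11 had values on 1 and 2 arrays of each group, between -3.04 and -1.93. Itga2b, the subunit of the platelet fibrinogen receptor, had values on 2 infarcted arrays and 1 sham control array, and Itga3 on 2 infarcted arrays with -0.92 and -1.29 and on 3 sham control arrays between -1.64 and -1.24. In none of these 4 genes did both groups reach 3 values.

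Among the beta subunits, Itgb1, the partner of most laminin-binding and collagen-binding alpha subunits, had 3.66, 3.68, 3.32 and 3.74 on infarcted arrays, against 4.11, 3.12, 4.32 and 3.35 on sham control arrays. The infarcted values all fell within the sham control range, and the log2 change was -0.13 ± 0.30 (adjusted p = 0.907, 95% interval -0.80 to 0.54). It was 0.30 after quantile normalization and 0.32 after loess against the mean array, without passing. Itgb5, a vitronectin receptor subunit, had 2.0, 1.63, 2.74 and 3.27 on infarcted arrays, against 2.71, 1.16, 2.57 and 1.83 on sham control arrays (0.34 ± 0.44, adjusted p = 0.822). Again the ranges overlapped.

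Itgb3, which pairs with Itgav and in platelets with Itga2b, had means of 0.65 ± 0.22 on infarcted and 0.34 ± 0.61 on sham control arrays (0.31 ± 0.31, adjusted p = 0.761). Platelet markers had a median log2 change of 0.79 over 4 tested genes, 3 of them positive, and their part in Itgb3 was not tested. Itgb4, the subunit of epithelial hemidesmosomes, had -0.56 ± 0.76 on infarcted and -0.60 ± 0.84 on sham control arrays (0.04 ± 0.48, adjusted p = 0.984). Itgb6, an epithelial subunit that activates latent TGF-beta, had -0.63 ± 0.71 on infarcted and -0.80 ± 0.35 on sham control arrays (0.17 ± 0.36, adjusted p = 0.897). In all, 8 of the 11 tested subunits outside leukocytes had a positive log2 change, where 42.5% of all features did. The median of the 11 was 0.11 and none passed the threshold, and 1 of the 8 was Itga7, whose complete probe was negative.

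**Figure D3:**
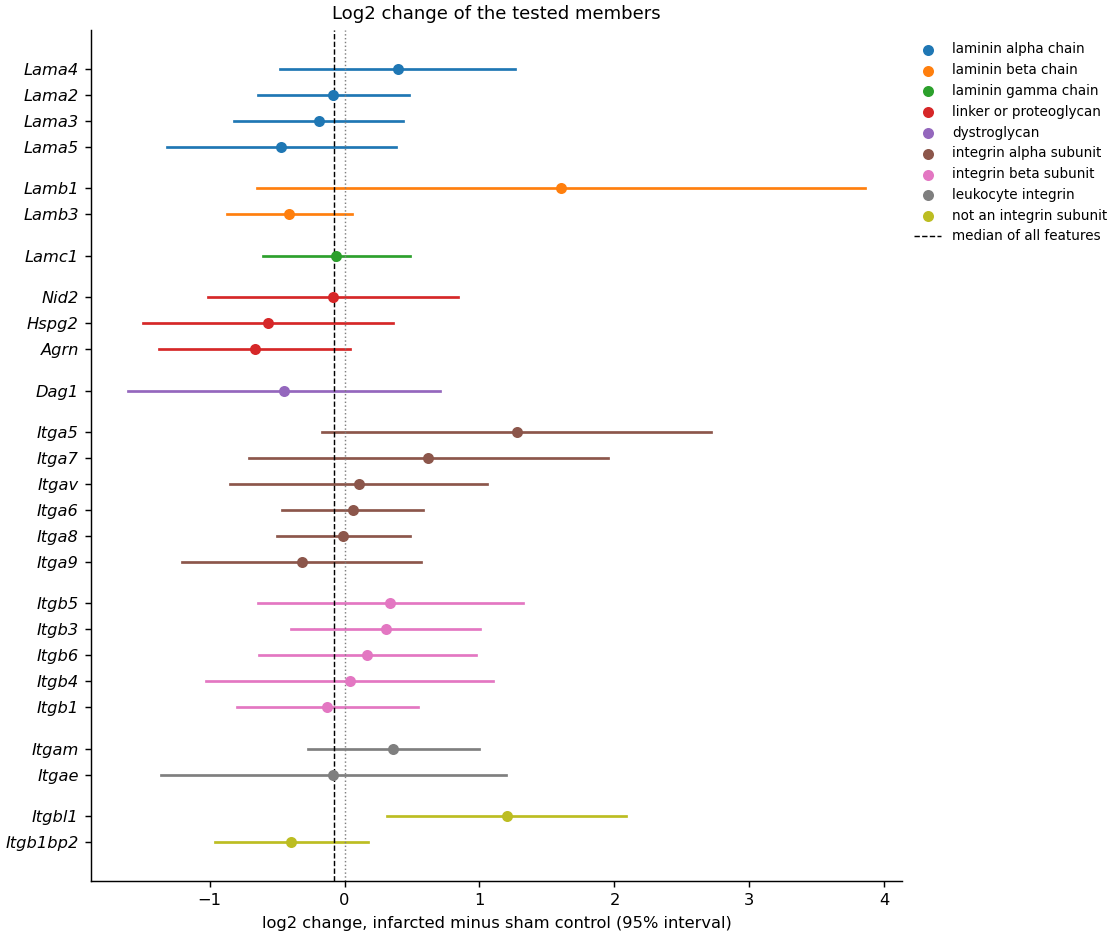
Log2 change of each tested member, infarcted minus sham control (horizontal axis), as points with 95% intervals from limma, coloured by role. The dashed line is the median of all 18044 features at -0.08. Every interval spans 0 except that of Itgbl1, and those of Lamb1 and Itga5 are the widest toward higher values.

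Of the genes that only share the name, Itgbl1, which codes for a secreted protein built of integrin beta-like repeats, had the smallest p of all members. Its 2 probes averaged to -0.68, -0.81, 0.01 and 0.81 on infarcted arrays, against -0.77, -1.90, -1.14 and -1.67 on sham control arrays. Only sham control replicate 1 reached into the infarcted range. The log2 change was 1.20 ± 0.40 (unadjusted p = 0.0128, adjusted p = 0.242), with 1.03 ± 0.37 and 1.37 ± 0.43 for the probes, and leaving out single arrays gave 0.88 to 1.42. Fibroblast markers had a median log2 change of -0.04 over 12 tested genes. The integrin ligand Postn, made by activated fibroblasts, had the highest change on that list, 1.76 ± 0.54 (adjusted p = 0.209). The fibroblast markers Col3a1 and Col1a1 had -0.61 ± 0.22 and -1.27 ± 0.64 (adjusted p = 0.293 and 0.466), and 7 of the 12 were negative. Col1a1 read 0.06 on infarcted replicate 1, against 2.32 to 3.55 on the other infarcted arrays.

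Itgb1bp2, known as melusin, a muscle protein that binds the tail of Itgb1 and is known for its role in the response of the heart to pressure load, had 3.93, 3.41, 3.58 and 2.94 on infarcted arrays, against 3.97, 4.05, 3.65 and 3.77 on sham control arrays. All infarcted values but that of replicate 1 lay below every sham control value, with a log2 change of -0.39 ± 0.25 (adjusted p = 0.593). After quantile normalization and after loess it was 0.04 and 0.06, so its sign depends on the scaling. Itgb3bp had -3.10 and -2.77 on 2 infarcted arrays and -2.99 on 1 sham control array, and was not tested.

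Leukocyte integrins were sparse on these arrays. Only 2 of the 8 were tested, 4 had values on 2 to 4 arrays a group without meeting the minimum in both, and Itga4 and Itgb2l had none. Itgam, which with Itgb2 forms the complement receptor of macrophages and neutrophils, had -1.15, -0.93, -0.71 and -1.49 on infarcted arrays, against -1.11, -1.90, -1.0 and -1.72 on sham control arrays. The infarcted values were higher on average but overlapped (0.36 ± 0.28, adjusted p = 0.673, 95% interval -0.27 to 1.0).

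Itgb2, the beta subunit common to this receptor family, was uneven within both groups. It read 2.12, -0.86, 2.82 and 0.68 on the 4 infarcted arrays, against -1.58 and 1.13 on sham control replicates 1 and 3, with no value on sham control replicates 2 and 4. Its mean was 1.19 ± 1.63 on infarcted (SD, n = 4) and -0.23 ± 1.92 on sham control arrays (n = 2). When at least 2 values a group sufficed, the log2 change was 1.42 ± 1.08 (adjusted p = 0.668).

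Itgae, found on lymphocytes within epithelia, had -0.57, -2.16, -1.52 and -0.13 on infarcted arrays, against -0.19, -2.49, -0.37 and -1.0 on sham control arrays. The spread within each group was far larger than the log2 change of -0.08 ± 0.57 (adjusted p = 0.974). Itgal, the lymphocyte partner of Itgb2, had -2.56 and -2.52 on 2 infarcted arrays, against -1.23, -2.64 and -1.84 on 3 sham control arrays. Itgax, a marker of dendritic cells, had -2.70 and -3.23 on infarcted arrays, against -2.91, -2.83 and -2.46 on sham control arrays. Itgb7, which guides lymphocytes to the gut, had -1.01, -1.12 and -0.01 on 3 infarcted arrays, against -1.36 and -1.49 on 2 sham control arrays.

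Macrophage and monocyte markers, by comparison, had a positive log2 change in 11 of 13 tested genes, where 42.5% of all features did. The median of these markers was 0.69 and none passed the threshold. Their medians per array ran from 0.53 to 1.38 on infarcted and from -0.07 to 0.83 on sham control arrays. Neutrophil markers had a median of 0.46, with all 6 tested genes positive, and lymphocyte markers 0.02 over 7. The 2 leukocyte integrins with enough values were too few to set against these lists.

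**Figure D4:**
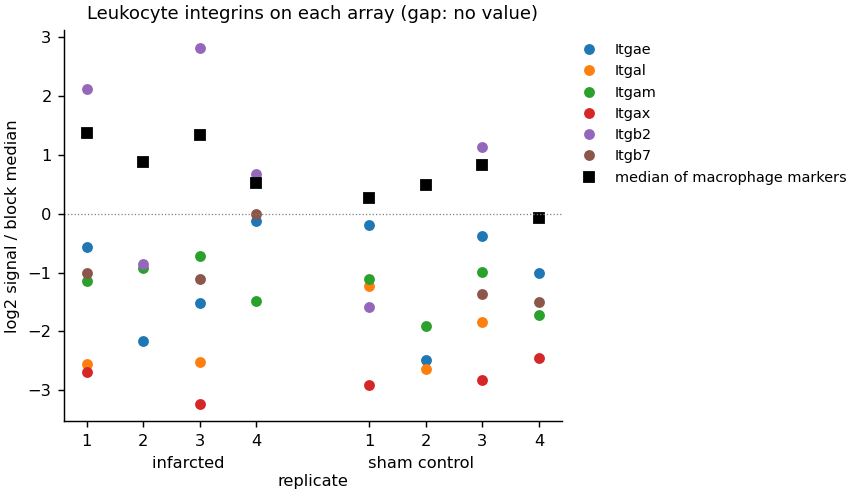
Log2 signal relative to the block median (vertical axis) of the 6 leukocyte integrins with any value on each array (horizontal axis, infarcted left and sham control right), with black squares for the median of 13 macrophage markers. Only Itgam and Itgae have a value on all 8 arrays, and Itgb2 runs from -0.86 to 2.82 on the infarcted arrays.

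The partners of these genes were described by lists. Among collagens of the basement membrane, 0 of 7 tested passed and the median log2 change was -0.54. Of the 7, 6 were negative, where 10371 of all 18044 features were, and Col18a1 was positive at 0.96. Col4a1, a chain of the collagen network itself, had 2.32, 1.47, 1.02 and 0.83 on infarcted arrays, against 2.75, 1.65, 3.30 and 2.80 on sham control arrays (-1.21 ± 0.42, unadjusted p = 0.016, adjusted p = 0.265). Col15a1, a collagen of muscle and capillary basement membranes, had 2.18, 2.04, 0.50 and 0.44 on infarcted arrays, against 2.38, 2.82, 2.69 and 2.12 on sham control arrays (-1.21 ± 0.43, adjusted p = 0.281). As with perlecan, infarcted replicates 3 and 4 had the lowest values of both genes. Col4a5 had a log2 change of -0.58 ± 0.24 (adjusted p = 0.359). Its groups did not overlap, which held for 1 of the 7 collagens, against 8.89% of all features.

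Other basement membrane proteins had 0 of 9 past the threshold and a median log2 change of 0.22. The calcium-binding matrix protein Smoc1 had 0.53 ± 0.26 (adjusted p = 0.463), the netrin Ntn4 0.45 ± 0.29 (adjusted p = 0.593) and Tinagl1 -0.52 ± 0.35 (adjusted p = 0.614). In the dystrophin complex and the enzymes that add sugars to dystroglycan, 0 of 13 passed, with 9 positive and a median of 0.24. Utrophin (Utrn), the relative of dystrophin, had 0.75 ± 0.37 (adjusted p = 0.463), and the sarcoglycans Sgcd and Sgce had 0.52 ± 0.29 and 0.39 ± 0.26 (adjusted p = 0.512 and 0.607).

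The adaptors that couple integrins to actin had 0 of 21 past the threshold and a median log2 change of -0.11. The tetraspanin Cd151, a membrane partner of laminin-binding integrins, had 2.07, 2.06, 2.29 and 1.74 on infarcted arrays, against 2.86, 2.73, 2.54 and 2.44 on sham control arrays (-0.60 ± 0.22, unadjusted p = 0.0195, adjusted p = 0.287). Its groups did not overlap, which held for 1 of the 21 adaptors, against 8.89% of all features. The actin-binding adaptors Tns1 and Tln1 had -0.48 ± 0.28 and -0.59 ± 0.35 (adjusted p = 0.541 and 0.545). Tns1 stood at 0.22 after quantile normalization.

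Integrin ligands had 0 of 17 past the threshold, 8 of them positive, and a median log2 change of -0.09, which was 0.12 after quantile normalization. Thbs2, a matricellular thrombospondin, had 1.18, 0.74, 0.87 and 1.04 on infarcted arrays, against 0.33, -0.25, 0.47 and -0.34 on sham control arrays (0.90 ± 0.25, unadjusted p = 0.00535, adjusted p = 0.169). Its groups did not overlap, which held for 3 of the 17 ligands, against 8.89% of all features. Vtn, the plasma protein vitronectin made in liver, had -0.77 ± 0.26 (adjusted p = 0.261), where the liver list had a median of -0.80. Ligands of leukocyte integrins had 0 of 6 past the threshold, with a median of 0.05. Vcam1 and Icam1, adhesion molecules of activated endothelium, had 0.64 ± 0.31 and 0.37 ± 0.30 (adjusted p = 0.45 and 0.679), and Madcam1 had 0.13 ± 0.25 (adjusted p = 0.892).

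**Figure D5:**
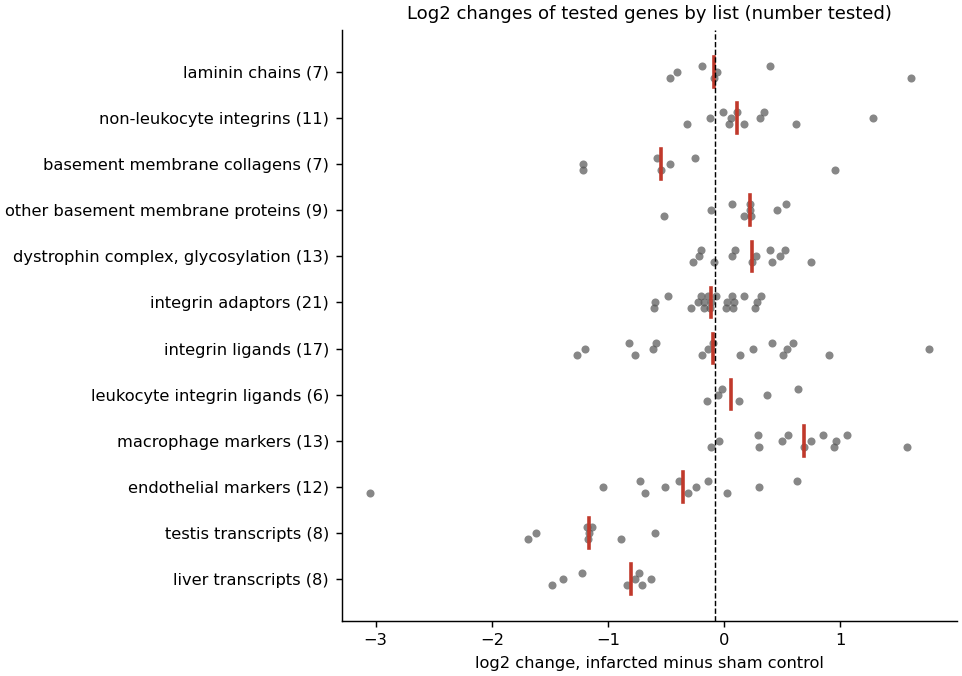
Log2 changes, infarcted minus sham control (horizontal axis), of the tested genes of each list, with the number tested in parentheses. Points are genes, red bars are list medians and the dashed line is the median of all features. The basement membrane collagens have a median of -0.54 and the testis and liver transcripts -1.17 and -0.80, while the laminin chains and non-leukocyte integrins lie around 0.

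Values within the infarcted group were also uneven. Of 25 tested members with a value on every infarcted array, replicates 1 and 2 were the 2 highest for 11 (44.0%), among them Hspg2, Lama4, Lama5, Lamc1, Nid2, Itga5, Itga6, Itga7 and Itga9, and the 2 lowest for 4. Over all 16938 such features replicates 1 and 2 were the 2 highest for 3208 (18.9%) and the 2 lowest for 4270. The order was noticed after the values were seen and was not tested, and the labels give no infarct size or batch to set beside it.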

How the data were processed

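Each of the 8 arrays has deposited log2 values for up to 33600 spots. Per the labels, heart RNA (30 µg, red dye) was hybridised against a green-labelled pool on spotted 70-mer oligonucleotides. Software, background correction, spot filter and genome build: not given in the sources used here. In each of 48 blocks, 2 to the power of the deposited log2 value times 1 constant was a whole number within 0.001 (100% of values), so the values are read as 1 channel's signal, from 42 to 65466, over the block median.

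Gene names came from the platform annotation (18179 with 1 symbol, 87 with several, 15334 with none). All 67 member probes had an Entrez identifier in a RefSeq table of GRCm38.p6, and 0 symbols were updated. Probes of a gene were averaged, arrays were centred on their median, and features with at least 3 values in each group were fitted in R 4.3.3 with limma 3.58.1 (lmFit, then eBayes), infarcted minus sham control, with Benjamini-Hochberg adjustment over all 18044 features. The fit was tested on simulated data with changes of known size. The labels name separate hearts, and the number of arrays limits the precision. Correlations between arrays of a group were 0.928 to 0.955 (infarcted) and 0.860 to 0.944 (sham control).

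The labels number replicates 1 to 4 in both groups without saying that numbers pair mice, so the fit has no block. All members are named, and of each list of their matrix, membrane and adaptor partners the 3 tested genes with the smallest p. For cell type markers and transcripts of other organs this was not done for every list. Members and lists were chosen with earlier results of these data known. Alternatives covered scaling, filters, probe summaries, the variance model, a replicate block and leaving out arrays. Spots without values were not filled in. Levels of different probes were not ranked against each other.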

Additional observations from a re-analysis of the deposited data

Results flagged for a closer look

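In 50 groups of 4 values of tested members, 3 arrays stood far from the other 3 of their group by Dixon's criterion, where chance gives about 1 in 20 groups. Dag1 had 2.14 on sham control replicate 1 (gap 0.881 of the range). Lama2 had -0.80 on infarcted replicate 4 (gap 0.845), where 1 of its 6 probes read -0.63, and 1.70 to 1.90 on the other infarcted arrays. Lamb1 had -1.40 on sham control replicate 2 (gap 0.873).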

How the results depend on the processing

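Across 18 alternatives in scaling, filters, probe summaries, variance model, replicate block and single arrays left out, 0 of the tested members passed. Of 476 values of the 26 members under all alternatives, 45 turned sign, in 16 genes. The number of all features that passed, 99, was 32 after quantile normalization, 157 with each probe on its own and 3 to 615 with 1 array left out, the highest without sham control replicate 4. With the replicate number as a block it was 1, and no member passed with the block. Deviations of same-numbered hearts had r = 0.02, 0.31, -0.08 and -0.19, against -0.19 to 0.31 for differently numbered hearts. Whether the numbers pair mice was not tested, and the labels do not say. A setting chosen after seeing the data left out sham control replicates 2 and 4, the sham arrays that carry the smallest number of values. There 1120 features and 1 member passed, Itga7 at 1.77 (adjusted p = 0.0272), where both sham arrays left carry its dim second probe, and Dag1 was 0.081, Itgam -0.016, Itgav -0.59, Itgb3 -0.21, Itgb4 -0.11, Itgb5 -0.24 and Itgb6 -0.098. With only values on all 8 arrays Itga7 was -0.83. After quantile normalization and loess Dag1 was 0.0035 and 0.0015, Itgb1 0.30 and 0.32, Itgb1bp2 0.042 and 0.056, Lamc1 0.17 and 0.20, and Tns1 0.22 and 0.20. The median of the integrin ligands was 0.12 after quantile normalization, 0.15 after loess, 0.14 with values on all 8 arrays and 0.17 with each probe on its own. With at least 2 values a group and infarcted replicate 1 left out, chosen after seeing the data, Itga6 was -0.019 and Itgb6 -0.023. With 1 array left out, Itga6 ran from -0.053 to 0.17, Itga8 from -0.090 to 0.11, Itgae from -0.58 to 0.27, Itgav from -0.31 to 0.40, Itgb1 from -0.33 to 0.071, Itgb4 from -0.25 to 0.42, Itgb6 from -0.047 to 0.43, Lama2 from -0.23 to 0.058, Lamc1 from -0.17 to 0.057 and Nid2 from -0.42 to 0.10. Others kept their sign but moved by over 1.5 times: Dag1 ran from -1.03 to -0.22, Hspg2 from -0.85 to -0.35, Itga5 from 0.80 to 1.88, Itga7 from 0.22 to 1.01, Itga9 from -0.61 to -0.11, Itgam from 0.20 to 0.51, Itgb1bp2 from -0.55 to -0.22, Itgb3 from 0.070 to 0.49, Itgb5 from 0.037 to 0.60, Lama3 from -0.31 to -0.067, Lama4 from 0.043 to 0.68 and Lama5 from -0.79 to -0.24. Except where stated, the cause was not tested. Dim probes and missing values limit the leukocyte integrins, of which none was left when the mean level also had to exceed the array median. Itgb2 was already out there because it had too few sham control values.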
